A study of Caenorhabditis elegans with 2 samples.

Results

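The 6 genes skn-1, hsf-1, pqm-1, hlh-30, atfs-1 and hif-1 encode transcription factors that switch on stress responses in the nematode Caenorhabditis elegans. They were chosen by name from 19973 nuclear protein-coding genes. Every region in lists from a PHA-4 profile whose summit lay in a gene or within 5 kb of its ends was read out. Many of these regions are weak, and a place in a list is not by itself a sign of binding. PHA-4 is a forkhead factor of the FoxA type, and it had been profiled by chromatin immunoprecipitation and sequencing (ChIP-seq). The material was whole young adult worms of strain OP37, genotype unc-119(ed3) III; wgIs37, in which PHA-4 carries an enhanced green fluorescent protein (eGFP) tag, and males and females were pooled. There was 1 group with 2 biological replicates, so no treatment, stress or genotype was compared, and no untagged library was analysed here. How much of the genome the transgene wgIs37 carries and in which cells it is active were not given in the sources used here. In whole worms, fewer cells with bound PHA-4 and less binding per cell cannot be told apart.

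PHA-4 specifies the pharynx in the embryo, and in the adult it is needed for the long life that a restricted diet gives and for autophagy gene expression in long-lived worms. The stress factors each answer another kind of damage. SKN-1, related to mammalian Nrf2, answers oxidants and electrophiles, and HSF-1 answers heat and unfolded protein. ATFS-1 goes to the nucleus in place of mitochondria when mitochondrial import fails. HLH-30, the counterpart of mammalian TFEB, drives autophagy and lysosome genes, HIF-1 is degraded while oxygen is plentiful, and PQM-1 is a zinc finger factor that alternates with DAF-16 in the nucleus. Several of them are needed, like PHA-4, for the long life of one or another kind of long-lived worm.

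The authors deposited relaxed lists, which keep weak regions and background on purpose, for the pooled reads and for each replicate, and an optimal list of regions that passed their reproducibility test. Regions were ranked within a list by the authors' signal value, rank 1 being the strongest. The pooled relaxed list had 24890 regions and each replicate 30000. The 839 optimal peaks were the 839 strongest pooled regions, and 4065 pooled regions reached a q value of 0.05 or less. Replicate 1 was the weaker: 0 of its nuclear regions reached that q value, where 7548 did in replicate 2. Read depth is not given.

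Of the 6 genes, 4 had an optimal peak within 5 kb: atfs-1 (pooled rank 36), skn-1 (rank 299), hlh-30 (rank 447) and hsf-1 (rank 698). Among all protein-coding genes 10.9% had one. None of these 4 peaks lay in a promoter window, defined as the 1000 bp before and the 200 bp after the 5′ end of any annotated transcript. For that window the count was 0 of 6 genes, and 3.52% of all protein-coding genes had such a peak. The 0 depends on the window and on the rule: it became 2 of 6, skn-1 and hsf-1, with 2000 bp upstream to 500 bp downstream, and 3 of 6, hsf-1, hlh-30 and atfs-1, when each peak went to the protein-coding gene with the nearest 5′ end. The count within 5 kb was 3 genes with as many of the strongest regions of replicate 2 alone, and 1 gene, skn-1, with those of replicate 1 alone. The peaks of skn-1 and hlh-30 lay in introns, which gives 2 of 6 genes with an optimal peak between their ends, against 1.07% of all genes. That share was not matched for gene length, and these 2 genes are 9346 and 20159 bp long. The hsf-1 peak was upstream of the gene and the atfs-1 peak was past its 3′ end. The strongest pooled region of pqm-1 ranked 3479 and the only one of hif-1 ranked 16876.

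The DNA under the summits shows what the peaks have in common and where they differ. Each line below holds 201 bases of the reference, 100 on either side of a pooled summit, on the plus strand of ce11 (RefSeq sequence of WBcel235). Capitals mark matches, on either strand, to the forkhead heptamer TNTTNNN (the second base A or G, the fifth G or T, the sixth A or G and the last C or T), to the GATA site TGATAA, to the repeat GAGAGAG and to the E-box CACGTG. The first 3 are optimal peaks, the next 2 are the strongest regions that were not optimal at skn-1 and hlh-30, and the last is the strongest region of pqm-1.
atfs-1, chrV:14200173-14200373, rank 36: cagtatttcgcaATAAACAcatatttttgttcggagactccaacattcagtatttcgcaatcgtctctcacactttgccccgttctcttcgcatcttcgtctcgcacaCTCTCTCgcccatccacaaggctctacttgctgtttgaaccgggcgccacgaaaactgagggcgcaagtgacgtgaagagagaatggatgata
skn-1, chrIV:5654293-5654493, rank 299: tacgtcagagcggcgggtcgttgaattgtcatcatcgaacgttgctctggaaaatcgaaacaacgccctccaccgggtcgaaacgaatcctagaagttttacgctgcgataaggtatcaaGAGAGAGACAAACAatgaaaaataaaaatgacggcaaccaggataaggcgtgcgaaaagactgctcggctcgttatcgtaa
hlh-30, chrIV:4024267-4024467, rank 447: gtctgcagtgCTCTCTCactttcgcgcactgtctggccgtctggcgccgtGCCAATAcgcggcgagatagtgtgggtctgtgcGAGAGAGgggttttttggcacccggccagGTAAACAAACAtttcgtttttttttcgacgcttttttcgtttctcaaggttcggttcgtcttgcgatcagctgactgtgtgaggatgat
skn-1, chrIV:5659470-5659670, rank 883: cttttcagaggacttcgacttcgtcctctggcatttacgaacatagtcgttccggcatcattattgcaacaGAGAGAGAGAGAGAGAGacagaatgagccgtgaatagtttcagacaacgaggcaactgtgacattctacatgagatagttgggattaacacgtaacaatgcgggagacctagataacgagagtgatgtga
hlh-30, chrIV:4019939-4020139, rank 1444: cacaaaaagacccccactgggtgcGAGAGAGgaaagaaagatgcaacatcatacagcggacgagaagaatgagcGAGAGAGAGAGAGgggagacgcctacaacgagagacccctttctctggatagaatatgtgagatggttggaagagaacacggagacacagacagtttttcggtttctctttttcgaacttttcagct
pqm-1, chrII:11151056-11151256, rank 3479: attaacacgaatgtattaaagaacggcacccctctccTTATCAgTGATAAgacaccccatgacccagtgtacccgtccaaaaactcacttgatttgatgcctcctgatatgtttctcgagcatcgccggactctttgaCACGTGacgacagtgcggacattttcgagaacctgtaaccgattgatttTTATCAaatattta

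All 4 optimal peaks near the 6 genes held a forkhead match in this window, as did 59.4% of all 839 optimal peaks and 50.4% of all pooled regions. At hlh-30 the TGTTTAC match lay 15 bp and the TGTTTGT match 19 bp from the summit. At skn-1 the forkhead match, TGTTTGT, lay 30 bp away, directly next to the GAGAGAG repeat at 23 bp. At atfs-1 the forkhead match TGTTTAT was far from the summit, at 85 bp, while a GAGAGAG lay at 11 bp. At hsf-1, whose bases are not printed, 3 forkhead matches lay 41 to 85 bp from the summit.

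GAGAGAG was in 3 of the 4 optimal windows (skn-1, hlh-30 and atfs-1) and in 17.2% of all optimal and 6.16% of all pooled windows. The skn-1 region of rank 883 held 6 overlapping matches in 1 run, and no forkhead match. The hlh-30 region of rank 1444 held 5 matches and no forkhead match either. Among the 13 regions with a q value of at most 0.05 near the 6 genes, 8 held a forkhead match, 5 held GAGAGAG and 4 held TGATAA, the core of the element that PQM-1 binds. TGATAA was in 0 of the 4 optimal windows and in 27.1% of all optimal windows, and in 22.4% of all pooled windows.

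The sites of the stress factors themselves were searched in the same windows. The E-box CACGTG, which HLH-30 binds, was in 0 of the 4 optimal windows and in 1 of the 13 regions, the pqm-1 region above, against 13.1% of optimal and 4.62% of pooled windows. The core GTCAT of the SKN-1 site was in 2 of the 4 and 6 of the 13, against 31.5% of optimal and 27.7% of pooled windows. TACGTG, the core bound by HIF-1, was in 0 of the 4 and 2 of the 13, against 4.65% and 3.97%. It shares the letters ACGTG with the E-box. TTCNNGAA, a pair of inverted heat shock half-sites, was in 0 of the 4 and 1 of the 13, against 10.1% and 13.1%. A match is only a run of letters in the window, and no match says nothing on whether a factor binds.

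Each gene had more pooled regions around it than the genome average, except hif-1. The 6 windows together covered 110181 bp and held 66 pooled regions, 5.99 per 10 kb, where the genome had 2.48. Replicate 1 had 55 regions in them (4.99 per 10 kb, genome 2.99) and replicate 2 had 77 (6.99 per 10 kb, genome 2.99). Of the 66, 27 lay in introns, 19 upstream of the gene, 10 in coding exons, 8 downstream and 2 in untranslated exons. A region of each replicate overlapped 34 of the 66 by at least 1 bp, and over all pooled regions 35.8% were overlapped in both. For the 13 with a q value of at most 0.05 this was 10 of 13, and over all pooled regions with such a q value it was 63.0%. Neighbouring pooled regions can share a replicate region, so these overlaps are not independent. At the 5 kb limit, the last pooled region inside was at hlh-30, 4993 bp from the gene at rank 22315. The first outside was at skn-1, 5167 bp upstream at rank 1907 with a signal of 30.8, followed by 1 at pqm-1, 5277 bp away at rank 13552.

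**Figure D1:**
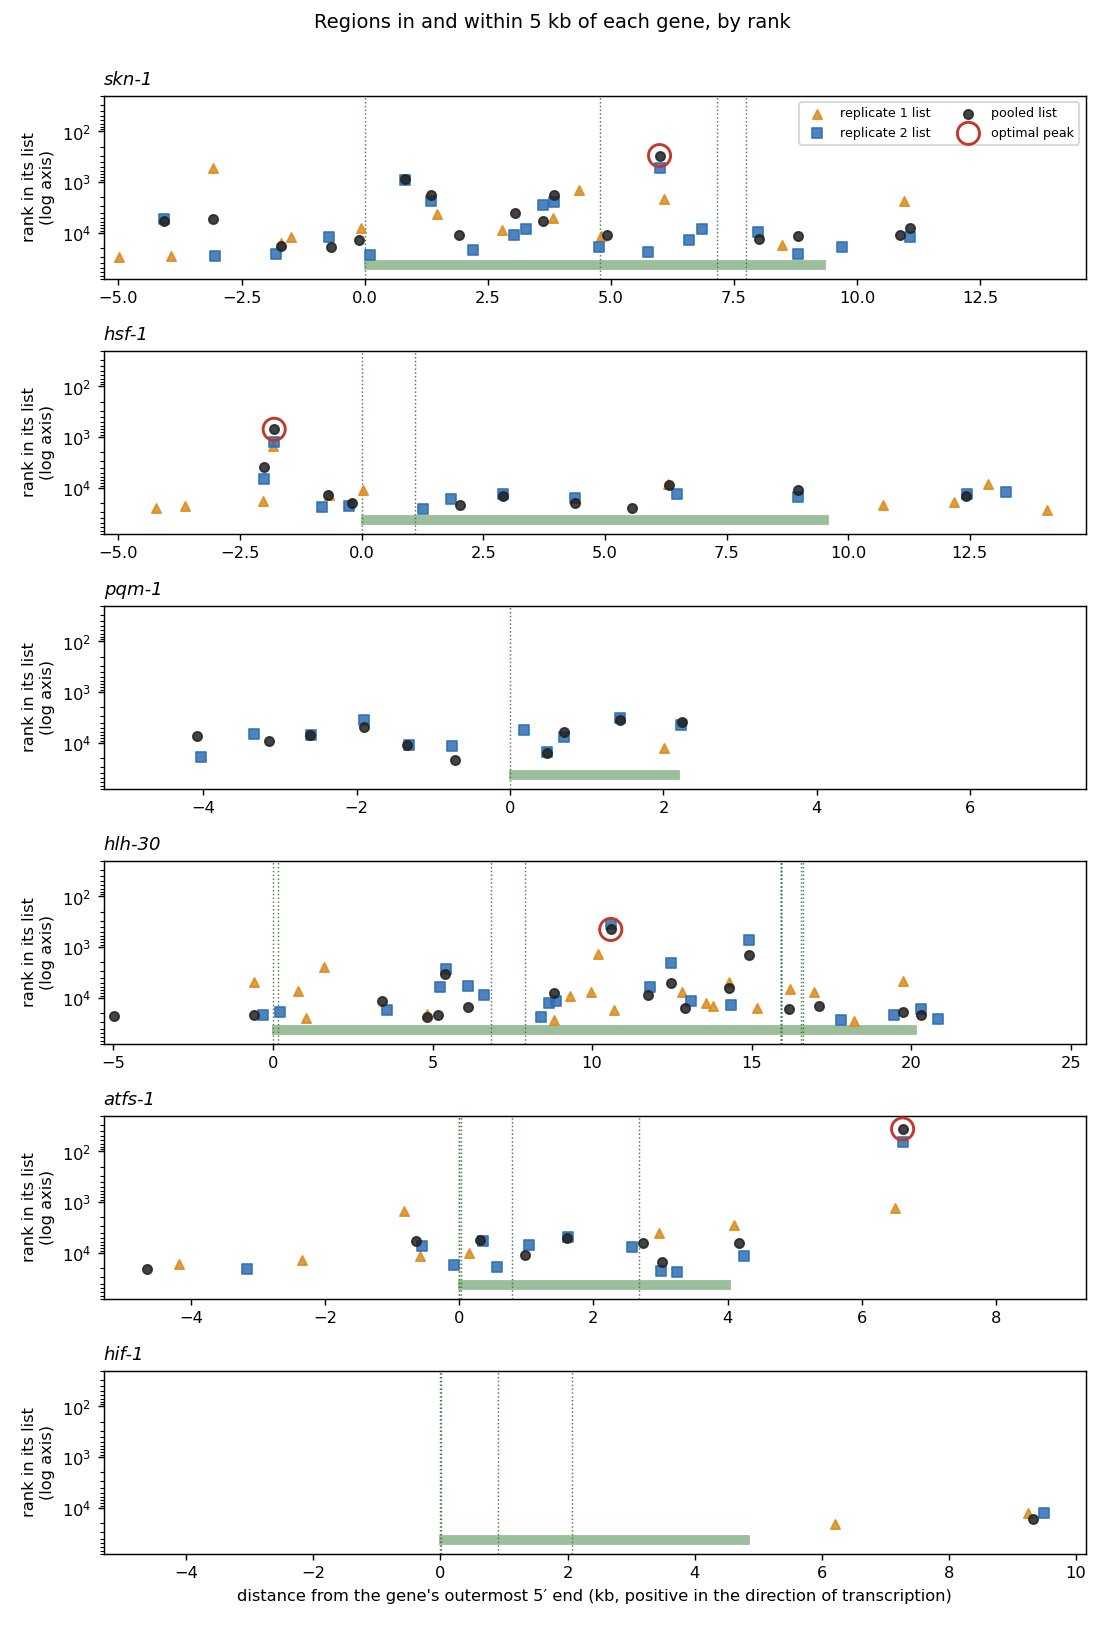
Rank of every region (vertical log axis, strong regions at the top) against the distance in kb of its summit from the outermost annotated 5′ end of each gene, in the direction of transcription. Black circles are pooled regions, orange triangles replicate 1, blue squares replicate 2, and red rings optimal peaks; the green bar is the gene and dotted lines are its 5′ ends. The rings of skn-1 and hlh-30 lie over the gene, that of hsf-1 before it and that of atfs-1 after it, and hif-1 has marks only past its 3′ end.

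A q value of at most 0.05 was reached by pooled regions at 5 of the 6 genes, all but hif-1, against 36% of protein-coding genes. In replicate 2 alone it was reached at the same 5 genes by 26 regions, against 52% of protein-coding genes. In replicate 1 alone it was reached at 0 of 6 genes, and at 0% of protein-coding genes. In the promoter window, a pooled region reached it at 2 of 6 genes, skn-1 and hlh-30, against 12.8% of genes. These regions lay near the far edge of the window, 938 bp upstream at skn-1 and 995 bp upstream at hlh-30. No other promoter window was tried for this count. Long genes hold more regions by their length alone, and skn-1, hsf-1 and hlh-30 are 9346, 9579 and 20159 bp long.

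The skn-1 gene (WBGene00004804, chromosome IV, 5651039 to 5660384, minus strand) encodes a factor of the bZIP-related CNC type, which in the embryo also sets the fate of endoderm and mesoderm. It has 4 annotated 5′ ends, at 5660384 (transcript a), 5655605 (c), 5653229 (b) and 5652640 (d). In background, the long form SKN-1A is tied to the endoplasmic reticulum, SKN-1B is made in the ASI neurons and SKN-1C is the main form of the intestine. There were 17 pooled regions within 5 kb, 14 in replicate 1 and 21 in replicate 2. Of the pooled regions 5 reached a q value of 0.05 or less, and all 5 lay in introns of skn-1.

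The optimal peak of skn-1 spanned 5654223 to 5654562 with a signal of 55.6 and a q value of 0.000608. Its summit at 5654393 was 1164 bp upstream of the 5′ end of transcript b, just outside the promoter window. The same summit fell in an intron of clec-178, a C-type lectin gene that lies inside skn-1, 444 bp downstream of its 5′ end. The nearest protein-coding 5′ end was therefore that of clec-178. The overlapping region ranked 2170 in replicate 1 (signal 9.28, q = 0.448) and 523 in replicate 2 (signal 44.0, q = 0.000293). The scaling of the signal is not stated for any list, so only ranks were compared between lists.

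The other 4 skn-1 regions with a q value of at most 0.05 lay in introns of transcript a, between its 5′ end and that of transcript c. The region at 5659570 had a signal of 40.4 (q = 0.00170, rank 883), 814 bp downstream of the 5′ end of transcript a. It ranked 925 in replicate 2 with a summit at the same base, and replicate 1 had no region there. The region at 5656543 had a signal of 32.0 (q = 0.00143, rank 1749), and it was the only skn-1 region of the kind in a promoter window, 938 bp upstream of the 5′ end of transcript c. Replicate 1 ranked 5166 and replicate 2 ranked 2431 there. The region at 5659030 had a signal of 31.9 (rank 1756) and that at 5657332 a signal of 22.3 (q = 0.0483, rank 4026). The summit at 5657332 was also inside the non-coding RNA gene T19E7.26, 14 bp downstream of the 5′ end of that gene. For the summit at 5656543 as well, the 5′ end of T19E7.26 was nearer than that of transcript c.

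The replicates pointed to different places upstream of skn-1. The strongest skn-1 region of replicate 1 ranked 537 and lay 3088 bp upstream of the 5′ end of transcript a, in a coding exon of bec-1, the beclin gene of autophagy, whose 3′ end is 757 bp from skn-1. The pooled region there ranked 5356 with a q value of 0.130, and replicate 2 ranked 28560. In the promoter window of transcript c, replicate 1 had a region of rank 1439 with its summit at 5656023 and the pooled list had none overlapping it. In the promoter window of transcript a the pooled regions were weak: those 119 bp and 683 bp upstream of its 5′ end ranked 14065 and 18882. The stronger region of rank 883 lay 814 bp downstream of that 5′ end, outside the window.

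The atfs-1 gene (WBGene00013878, chromosome V, 14193663 to 14197700, plus strand) encodes a bZIP factor that carries both a mitochondrial and a nuclear address. It had 9 pooled regions, 8 in replicate 1 and 12 in replicate 2, and only 1 of the 9 reached a q value of 0.05 or less. That region was the strongest of any of the 6 genes, an optimal peak from 14200103 to 14200442 with a signal of 89.4 (q = 0.000608). Its summit at 14200273 lay 2573 bp past the 3′ end of atfs-1 and 3928 bp from the nearest annotated 5′ end, that of the short transcript d. The next gene, T16A9.3, started 5241 bp beyond the summit. Only 6.32% of the optimal peaks were at least as far from a protein-coding 5′ end, and 4.29% had a signal at least as high. The peak went to atfs-1 by the 5 kb window and also by the nearest protein-coding 5′ end. Both rules rest on distance alone.

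Both replicates had a region under the atfs-1 peak. Replicate 2 ranked 66 (signal 74.7) with its summit at the same base, and replicate 1 ranked 1280 (signal 10.3, q = 0.341) with its summit at 14200154. Near the 5′ ends of atfs-1 the regions were weaker. The pooled region 640 bp upstream of the outermost 5′ end ranked 5794 (signal 18.8, q = 0.165), with rank 1459 in replicate 1 and rank 7358 in replicate 2. The region 292 bp downstream of another 5′ end, in an intron, ranked 5627 (signal 19.1, q = 0.150). Replicate 2 alone gave 5 atfs-1 regions a q value of at most 0.05, of which 2 lay in a promoter window.

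The hlh-30 gene (WBGene00020930, chromosome IV, 4014793 to 4034951, minus strand) encodes a basic helix-loop-helix leucine zipper factor. It is the longest of the 6 and has 13 transcripts with 10 annotated 5′ ends. There were 18 pooled regions, 19 in replicate 1 and 20 in replicate 2, and 12 of the pooled ones lay in introns. Its optimal peak spanned 4024197 to 4024536 with a signal of 49.9 and a q value of 0.000608. The summit at 4024367 lay deep in an intron, 2696 bp downstream of the 5′ end shared by transcripts d and e. Of all optimal peaks, 13.7% were at least as far from a protein-coding 5′ end.

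The replicates differed at the hlh-30 peak. Replicate 2 ranked 343 (signal 49.5), and the overlapping replicate 1 region ranked 17215. The strongest hlh-30 region of replicate 1 was nearby, with its summit at 4024768, at rank 1332 (signal 10.3, q = 0.347), and it did not overlap a pooled region. A second region, at 4020039, had a signal of 34.4 (q = 0.00104, rank 1444) and lay in a promoter window, 995 bp upstream of the 5′ end of transcript f. It was also inside the non-coding RNA gene W02C12.4. It ranked 735 in replicate 2 and 15756 in replicate 1. Another, at 4029563 in an intron, had a signal of 24.3 (q = 0.0253, rank 3307). At the outermost 5′ end of hlh-30 the only pooled region in the window was 602 bp upstream and ranked 22040.

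The hif-1 gene (WBGene00001851, chromosome V, 20780407 to 20785260, plus strand) encodes the oxygen-regulated partner of a pair of basic helix-loop-helix PAS factors. No region of any of the 3 relaxed lists had its summit in the gene or within 5 kb upstream of it. The pooled list had 1 region in its surroundings, at 20789734, 4474 bp past the 3′ end, with a signal of 11.4, a q value of 0.792 and rank 16876. That summit lay in a coding exon of tpan-1 and an intron of Y44A6D.1. Replicate 1 had 2 regions, both past the 3′ end, at ranks 12614 and 20929, and replicate 2 had 1, at rank 12751. At most 1 pooled region was found at 31.5% of all protein-coding genes, so a sparse neighbourhood by itself is common.

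The stretch without a summit around hif-1 was longer than most. In the pooled list it ran for 29581 bp, where the median gap between neighbouring summits was 1729 bp and 0.985% of gaps were at least as long. In replicate 1 it was 25639 bp (0.354% of gaps) and in replicate 2 it was 29774 bp (0.687% of gaps). Gaps of that length or more covered 10.2%, 3.69% and 8.25% of the genome in the pooled, replicate 1 and replicate 2 lists. The stretch held 4 protein-coding genes, elp-1, F38A6.4, F38A6.5 and hif-1. Its share of G and C was 35.0% against 35.4% in the genome, and the reference has 0 unknown bases in it.

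On its upstream side the stretch began at or near the end of pha-4 itself, whose nearer end is 20090 bp from hif-1. The pha-4 gene is also carried by the tagged transgene, and within 5 kb of it there were 22 pooled regions, 5 in replicate 1, 21 in replicate 2 and 8 optimal peaks. The part of the tagged copy in these counts was not tested.

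**Figure D2:**
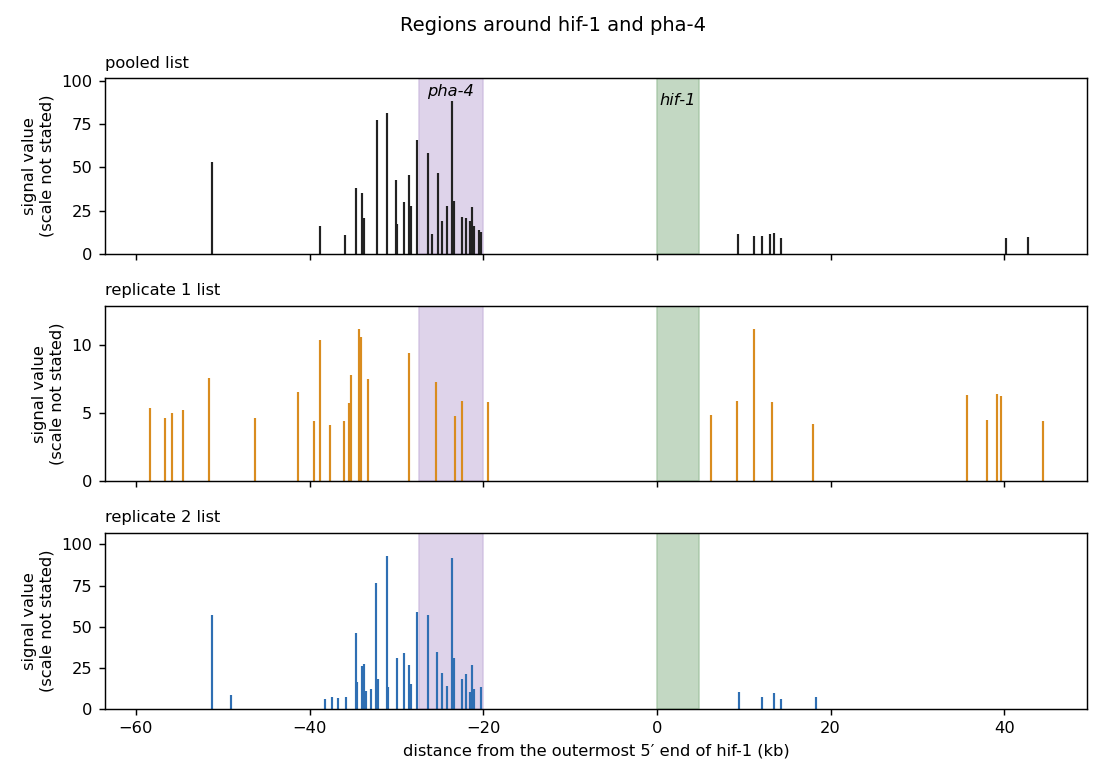
Signal value of each region (vertical axis, scale not stated, a different range in each panel) against the distance in kb of its summit from the outermost 5′ end of hif-1, for the pooled, replicate 1 and replicate 2 lists. Each line is a region, green shading is hif-1 and violet shading is pha-4. Regions crowd around pha-4 in the pooled and replicate 2 panels, and the space from there to past the 3′ end of hif-1 is empty in all 3 panels.

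The hsf-1 gene (WBGene00002004, chromosome I, 11953507 to 11963085, minus strand) encodes the heat shock factor, which trimerises on heat shock elements. It had 11 pooled regions, 11 in replicate 1 and 12 in replicate 2. Of the pooled regions 2 reached a q value of 0.05 or less, and they lay side by side upstream of the gene. The optimal peak spanned 11964712 to 11965051 with a signal of 43.7 (q = 0.000608, rank 698), and its summit was 1797 bp upstream of the outermost 5′ end. The second, with its summit 2008 bp upstream, had a signal of 22.6 (q = 0.0446, rank 3894). Of all optimal peaks 83.2% had a signal at least as high as the hsf-1 peak, so it is near the weak end of the optimal list.

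Replicate support at hsf-1 was the most even of the 4 optimal peaks. The overlapping region ranked 1522 in replicate 1 (q = 0.373) and 1228 in replicate 2 (signal 32.9, q = 0.000293), with summits 1812 and 1798 bp upstream of the 5′ end. Closer to the gene the pooled regions were weak: those 189 bp and 701 bp upstream ranked 20000 and 13757. In all optimal peaks the median rank was 3481.5 in replicate 1, over the 580 that it overlapped, and 432 in replicate 2.

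The pqm-1 gene (WBGene00004096, chromosome II, 11150391 to 11152595, minus strand) encodes a zinc finger factor that binds a GATA-like element in stress and growth genes. It had 10 pooled regions, 1 in replicate 1 and 11 in replicate 2. The strongest pooled region had a signal of 23.7 (q = 0.0300, rank 3479) and its summit at 11151156 was in a coding exon, 1439 bp into the gene. The other with a q value of at most 0.05 had a signal of 22.6 (q = 0.0437, rank 3876). It lay 35 bp past the 3′ end, in an untranslated exon of arrd-6, an arrestin-domain gene read from the other strand.

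Replicate 2 overlapped all 10 pooled regions of pqm-1. Its strongest region was at the same base, with rank 3180 and a signal of 21.6 (q = 0.00110), and 6 of its regions reached a q value of 0.05 or less. Replicate 1 had its sole region at rank 12427 (q = 0.800), and it overlapped 1 of the 10 pooled regions. Upstream of pqm-1 the pooled list had 6 regions, spread from 724 to 4082 bp from the 5′ end, at ranks from 4748 to 21520. Only the weakest of these was in the promoter window. In replicate 2 alone, that window also held a region 186 bp downstream of the 5′ end, at rank 5462 (q = 0.0144).

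Set side by side by the best pooled rank, the order was atfs-1 (36), skn-1 (299), hlh-30 (447), hsf-1 (698), pqm-1 (3479) and hif-1 (16876). A best rank at least as high was found at 0.671% of protein-coding genes for atfs-1, 4.56% for skn-1, 6.47% for hlh-30, 9.28% for hsf-1, 32.6% for pqm-1 and 74.0% for hif-1. In replicate 2 the order was atfs-1 (66), hlh-30 (343), skn-1 (523), hsf-1 (1228), pqm-1 (3180) and hif-1 (12751). In replicate 1 it was skn-1 (537), atfs-1 (1280), hlh-30 (1332), hsf-1 (1522), pqm-1 (12427) and hif-1 (12614). In the pooled list the 4 genes with an optimal peak come first by construction, since the optimal peaks are its strongest regions. They also stood ahead of pqm-1 and hif-1 in each replicate list, whose reads the pool holds, and their own order changed between lists. The median best pooled rank was 572.5 over the 6 genes and 5336 over the 16993 protein-coding genes with a pooled region within 5 kb.

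**Figure D3:**
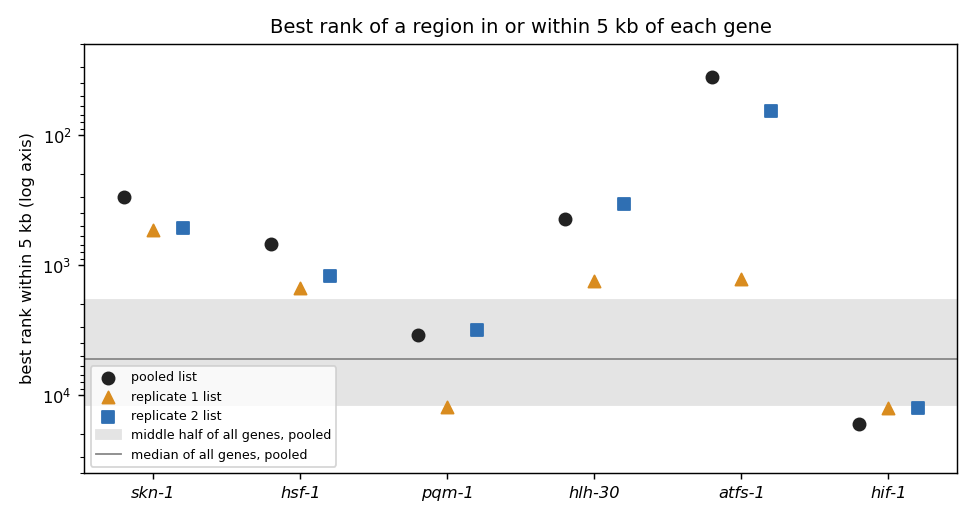
Best rank of a region in or within 5 kb of each gene (vertical log axis, strong regions at the top) in the pooled list (black circles), replicate 1 (orange triangles) and replicate 2 (blue squares). The grey band spans the quartiles and the grey line the median of all protein-coding genes with a pooled region, from rank 1877 to 11954 with the median at 5336. The marks of skn-1, hsf-1, hlh-30 and atfs-1 all lie above the band, and the pooled mark of hif-1 lies below it.

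Each of the 4 optimal peaks lay farther from a protein-coding 5′ end than the median optimal peak. Over all 839 optimal peaks the median distance to the nearest protein-coding 5′ end was 361 bp, and 19.3% were more than 2000 bp away. The distances here were 444 bp at skn-1, to clec-178, 1797 bp at hsf-1, 2696 bp at hlh-30 and 3928 bp at atfs-1. The skn-1 peak was near the median, with 46.5% of optimal peaks at least as far. That share was 21.5% for hsf-1, 13.7% for hlh-30 and 6.32% for atfs-1. In this annotation a 5′ end is often the site where a spliced leader is joined, so true start sites can lie further upstream.

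Genes with the most similar promoter-window ranks in the 3 relaxed lists were sought among 4392 protein-coding genes with a region in all 3, by the Euclidean distance of the log10 ranks. For skn-1 these were nrf-6 (0.0574) and dgk-2 (0.0782), for hsf-1 unc-130 (0.0365) and unc-119 (0.0449), and for hlh-30 eat-6 (0.0901) and C37C3.9 (0.137). For atfs-1 they were mut-2 and K04F10.3, which had the same ranks and the same distance (0.0624). The genes pqm-1 and hif-1 lacked a promoter-window region in at least 1 list. Each likeness rests on 3 values, of which the pooled one holds the reads of both replicates. The 3 ranks of a gene can also come from different places. At hlh-30 the pooled rank of 1444 was at 4020039 and the replicate 1 rank of 4908 at 4035554.

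The partners and known targets of the 6 factors were read in the same way, from 6 lists of 11 or 12 matched genes and a list of 17 other stress transcription factor genes. Over these lists, with each gene once, 83 of 85 symbols were matched to the annotation. Of the 83, in 13 the promoter window held an optimal peak, beside the 3.52% of all protein-coding genes, and 40 had a pooled region there with a q value of at most 0.05, beside 12.8%. The lists hold many broadly expressed genes, and expression or open chromatin was not matched.

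In the SKN-1 list, 0 of 12 promoter windows held an optimal peak and 4 had a region with a q value of at most 0.05. The best was at wdr-23, whose product targets SKN-1 for degradation, at pooled rank 1740 (signal 32.0). The overlapping regions ranked 22496 in replicate 1 and 2573 in replicate 2. Anywhere in the wdr-23 promoter window the best ranks were 3600 in replicate 1 and 782 in replicate 2. In the HSF-1 list, 2 of 11 had an optimal peak: hsp-1, a constitutive Hsp70 chaperone, at rank 23 (signal 100.5), and hsp-110, its nucleotide exchange partner, at rank 157 (signal 65.7). Replicate 2 ranked them 23 and 111. The overlapping region of replicate 1 ranked 26707 at hsp-1, and replicate 1 had no region at the hsp-110 peak. In only 2 of the 11 a region in the promoter window reached a q value of 0.05 or less, and 5 had no pooled region there.

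In the HLH-30 list, 3 of 11 promoter windows held an optimal peak, all of them in autophagy or the lysosome. They were lgg-1, the ubiquitin-like protein of the autophagosome (rank 141, signal 67.8), vha-15, a subunit of the proton pump that acidifies lysosomes (rank 502, signal 48.3), and atg-18, a phosphoinositide-binding autophagy protein (rank 613, signal 45.6). The region overlapping the lgg-1 peak ranked 2781 in replicate 1 and 162 in replicate 2. Elsewhere in the lgg-1 promoter window replicate 1 had a region of rank 35. In 6 of the 11 listed genes a region in the promoter window reached a q value of 0.05 or less. In the ATFS-1 list, 2 of 12 had an optimal peak, hsp-60, a mitochondrial chaperonin (rank 225, signal 59.6), and ubl-5, a ubiquitin-like regulator of the same response (rank 355, signal 53.0). In 9 of the 12 a region in the promoter window reached a q value of 0.05 or less.

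In the PQM-1 list, 1 of 12 had an optimal peak, icl-1, the glyoxylate cycle enzyme (rank 331, signal 54.0), and 6 had a region with a q value of at most 0.05. In the HIF-1 list it was also 1 of 12, nhr-57, a nuclear receptor gene used as a reporter of HIF-1 activity (rank 175, signal 63.6), with 4 genes past the q value. Among the 17 other stress factor genes, 4 held an optimal peak in their promoter windows, against 0 of the 6. They were xbp-1 of the unfolded protein response (rank 58, signal 82.1), zip-2 of the infection response (rank 99, signal 73.0), cebp-1 (rank 376, signal 52.4) and nhr-49 of fat metabolism (rank 696, signal 43.8). The region overlapping the zip-2 peak ranked 14223 in replicate 1 and 112 in replicate 2. That of xbp-1 ranked 42 in replicate 2 and had no counterpart in replicate 1. Anywhere in the promoter window, replicate 1 had a best rank of 89 at zip-2 and no region at xbp-1. In 12 of the 17 a region in the promoter window reached a q value of 0.05 or less. The difference between 4 of 17 and 0 of 6 was not tested.

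**Figure D4:**
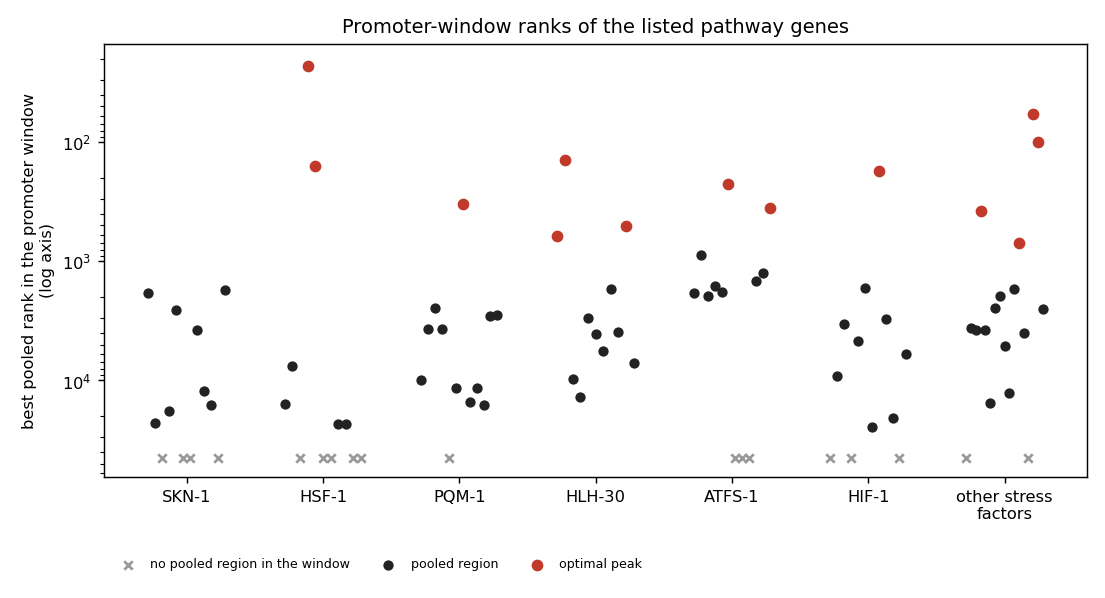
Best pooled rank in the promoter window (vertical log axis, strong regions at the top) of each matched gene in the 6 pathway lists and the list of other stress factor genes. Each mark is a gene, red for an optimal peak, black for another pooled region, and grey crosses for genes with no pooled region in the window, drawn below rank 24890. The SKN-1 column has no red mark, the other columns have from 1 to 4, and the best is hsp-1 at rank 23 in the HSF-1 column.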

How the data were processed

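Chromatin from 2 biological replicates of whole young adults was immunoprecipitated for tagged PHA-4, with library fragments of 150 to 350 bp per the labels. The authors deposited region lists on ce11, of which 4 were used: the relaxed lists of the pooled reads and of each replicate, and the optimal list. The signal of a region is the authors' value as deposited, and its scaling is not stated. The deposited lists also give −log10 of the q value, from which q was computed, and each region's summit. The aligner, peak caller, reproducibility threshold and read depth were not given in the sources used here. The ce10 lists were not used.

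Genes and transcript 5′ ends came from Ensembl release 115 on WBcel235, and coordinates count from 1. A region was assigned to each gene within 5 kb of its summit, in the annotation's outermost limits. Regions of different lists were matched by at least 1 bp of overlap. Motifs were searched on both strands within 100 bp of summits. The 6 genes, the lists and the tests were chosen with earlier results of these data known. No test across groups was possible, and counts are set beside the share of all protein-coding genes. Named genes besides the 6 were the nearer neighbours, the listed genes whose promoter window held an optimal peak (at most 4 a list, otherwise the best pooled rank), and the 2 most similar genes. Symbols daf-21 and ctsa-1 were not matched. Python 3.11.15, pandas 2.3.3 and numpy 2.4.6 were used. In simulated data 200 of 200 planted regions were assigned to the right place. The expected places came from the same distance rule, so this checks the arithmetic only and not the assignments above. The alternatives were other windows, q values, overlaps, rankings and single replicates.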

Additional observations from a re-analysis of the deposited data

How the results depend on the processing

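Over the summary counts 18 values under an alternative stayed within 1.5 times of the main one and 13 did not, and these 13 are given here. Of values for single genes, 136 stayed within that range, 49 moved beyond it and 1 turned its direction. With q at most 0.01 there were 8 regions in place of 13, and over single replicates the count ran from 0 to 26. Genes with an optimal peak within 5 kb fell from 4 to 2 with the stronger 50% of peaks, and ran from 1 to 3 with as many of the strongest regions of a single replicate. In the promoter window the count of 0 became 2 with 2000 bp upstream to 500 bp downstream, 3 when each peak went to the nearest protein-coding 5′ end, and 0 to 1 over single replicates. The median best rank of 572.5 became 1 when ranked by −log10 q, because 823 pooled regions share the lowest q value, and 875.5 to 1427 over single replicates. The median distance of the strongest pooled region from a 5′ end, 2246.5 bp, became 6300.5 bp when only the outermost 5′ end was used. For skn-1 this turned 1164 bp upstream into 5991 bp downstream. With 50% of the shorter region as overlap, 20 of the pooled regions in place of 34 were overlapped in both replicates. No paired analysis was possible because there is 1 group and no test. Replicate 1 has 0 nuclear regions with q at most 0.05, and the depth of each library is unknown.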
